A study of Mus musculus and Homo sapiens with 59 samples.

Results

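NIH3T3 mouse fibroblasts that carry a gasdermin D (GSDMD) construct were compared at rest, before the drug that activates the construct was added, with NIH3T3 cells that carry no construct. The comparison used 4 of the 59 libraries of the series, and every gene of the mouse table was considered. There were 2 untreated libraries of cells with mGSDMD1-276-HBD, in which the pore-forming front part of mouse GSDMD is joined to a domain that binds hormone, and 2 untreated libraries of parental NIH3T3 cells. All of these cells were kept in DMEM, and polyadenylated RNA was sequenced. For context, 3 other pairs of NIH3T3 libraries were used throughout. They included GSDMD cells given 50 nM 4OHT (4-hydroxytamoxifen, the activating drug) for 2.5 h. Untreated cells with hMLKL1–181-2Fv, a fragment of human MLKL on a dimerizable domain, were also included. A second pair of untreated parental libraries belongs to the digitonin experiment. To choose response genes, MLKL cells given 100 nM AP20187 for 1 h and parental cells given 55 µg/mL digitonin for 3 h were used as well. Untreated MLKL cells of the control siRNA experiment are quoted for Rhox5. Lewis lung carcinoma (LLC) cells gave a parallel comparison, with 2 untreated libraries of cells with the same GSDMD construct and 2 of untreated parental cells. Whether a construct line is a clone or a pool, and which promoter drives the construct, is not given in the sources used here. Replicates are libraries of 1 cell line, and nothing says that they came from separate cultures, so the tests measure only the spread between these libraries.

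Gasdermin D is the pore-forming protein of pyroptosis, an inflammatory form of cell death. Inflammatory caspases cut the protein, and its freed amino-terminal part inserts into the plasma membrane and forms pores. In the construct that fragment is tied to the domain to which 4OHT binds. The comparison at rest asks whether the uninduced construct comes with changed inflammatory or stress genes.

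The deposited values are TPM, transcript abundances corrected for length, and this scale sums to the same total in every library and keeps no depth. Changes are given on the log2(TPM + 1) scale, tested GSDMD over parental with limma, and a gene passed where its p, adjusted after Benjamini and Hochberg, was under 0.05. In the 4 libraries 11469 to 11498 genes reached 1 TPM with the construct and 11457 to 11459 without it. Libraries of 1 group correlated at r = 0.9906 (GSDMD) and 0.9914 (parental) over 11610 genes, and libraries of different groups at 0.972 to 0.9734, as a description. Small RNA rows took 1.1% and 1.11% of TPM in GSDMD libraries and 1.96% and 2.13% in parental libraries. Markers of the fibroblast were present throughout, with 13 of 15 at 1 TPM or more and a summed level of 15860 and 15210 TPM in GSDMD libraries and 15310 and 15140 TPM in parental libraries. Epithelial markers summed to 1.947 and 1.984 TPM in GSDMD libraries and 1.851 and 2.032 TPM in parental libraries. The second parental pair stood apart from all of these: its levels fell with transcript length (Spearman rho -0.302 and -0.31 against the mean over libraries, across genes, against 0.075 and 0.039 for GSDMD and 0.041 and 0.008 for parental libraries), and its small RNA share was 0.749% and 0.901%. Values of that pair are therefore given as a further look at parental cells, and the changes against it also with the trend on length removed.

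Construct transcripts were abundant without drug. Gsdmd, on chromosome 15 (75862144 to 75867408, GRCm38.p6, RefSeq), had 1230 and 1135 TPM in GSDMD libraries, against 6.14 and 5.44 TPM in parental libraries (log2 fold change 7.45, SE 0.08, limma adjusted p = 1.14e-24). Gsdmd had 13.2 and 13.9 TPM in the second parental pair and the MLKL cells 12.4 and 11 TPM, so that these 6 NIH3T3 libraries without the GSDMD construct lay far below. Esr1, the estrogen receptor gene whose ligand-binding part 4OHT binds, had 126 and 145 TPM in GSDMD libraries and 0 and 0.0153 TPM in parental libraries (log2 fold change 7.08, SE 0.08, limma adjusted p = 4.43e-24). It lies on chromosome 10 (4611989 to 5005633) and was listed at 0 in both libraries of the second parental pair. After 4OHT the values were 710 and 747 TPM for Gsdmd and 82.9 and 81.3 TPM for Esr1. The values count any read assigned to those genes, so construct and native transcripts are summed, and TPM divides by the length of the native transcripts, of which the construct holds a part. Neighbours of the native loci moved far less than these genes. Among 13 tested genes within 300 kb of Gsdmd the log2 fold changes lay between -0.31 and 0.64, and among 3 near Esr1 between 0.26 and 0.32.

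**Figure D1:**
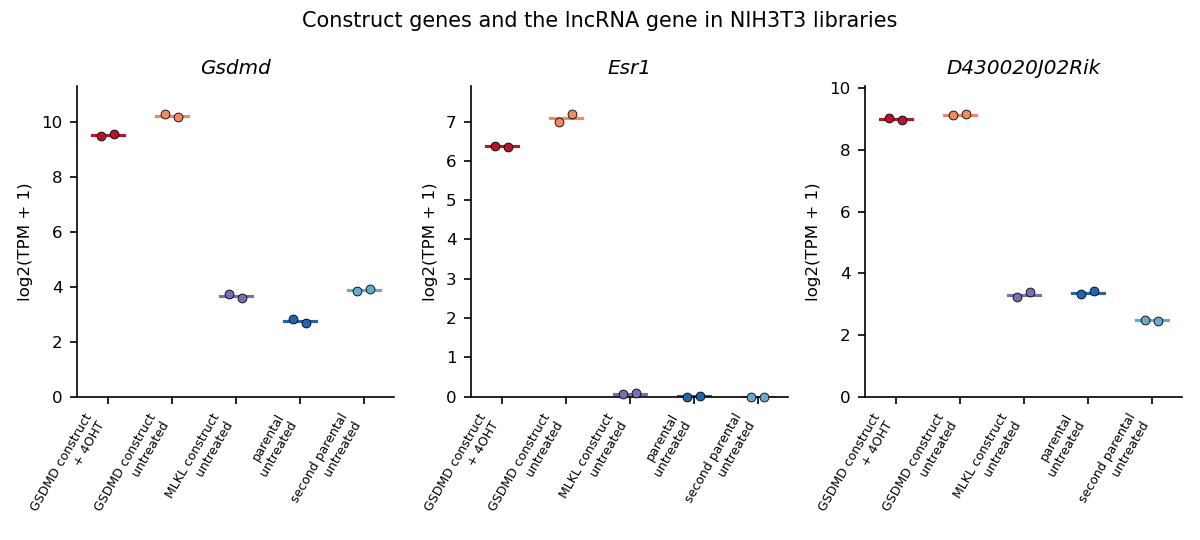
Level in each NIH3T3 library on the log2(TPM + 1) axis, with points for libraries and bars for the mean of 2, in 5 groups. Gsdmd and Esr1 are high in the 4 libraries with the GSDMD construct and low in the other 6, and so is the long noncoding RNA gene D430020J02Rik.

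Another transcript separated the same libraries. D430020J02Rik, a long noncoding RNA gene on chromosome 12 (116401947 to 116405161), had 558 and 573 TPM in GSDMD libraries, against 9.08 and 9.65 TPM in parental libraries (log2 fold change 5.77, SE 0.08, limma adjusted p = 4.22e-23). It held 530 and 497 TPM with 4OHT, and 4.65 and 4.52 TPM in the second parental pair. This gene has a name type that the naming rule leaves out and was chosen after its values were seen. The 3 tested genes within 300 kb of it changed by -0.46 to -0.04. In LLC cells it averaged 5.44 ± 0.021 TPM with the construct and 6.06 ± 0.6 TPM without it (SD, n = 2 each), a change that did not pass (limma adjusted p = 0.305).

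Many genes differed between the untreated lines, mostly by small amounts. Of 11620 genes tested, 6409 passed (55.2%), with 3452 higher (29.7%) and 2957 lower (25.4%) in GSDMD cells. Of these, 151 were at least 2-fold higher (1.3% of those tested) and 134 at least 2-fold lower (1.15%). The median over all tested genes was 0.02 on the log2 scale. Against the mean of both parental pairs the split was 6163 higher and 1862 lower. With the first parental pair alone the share of called genes that were higher was 53.9%, and 47.3% after centring each library on its median, so that small changes of either sign depend on the scaling. Between the second and the first parental pair 8786 of 11546 genes passed (76.1%), with 18.4% higher and 57.7% lower in the second. Of these, 198 were at least 2-fold higher (1.71%) and 1268 at least 2-fold lower (11%). Between GSDMD cells and the second parental pair 8796 of 11571 genes passed (76%), with 59.8% higher and 16.2% lower in GSDMD cells. After median centring these shares were 30.4% higher and 43.2% lower, and with the length trend removed 36.1% and 34.5%. A difference between GSDMD and parental cells therefore cannot be told apart from clone, batch or handling within these 4 libraries. Genes called and on 1 side of all 4 parental libraries numbered 2676 above (23%) and 886 below (7.62%). Counts of list members below are to be set beside those shares, and counts against the second pair beside the shares given for it. A count near such a share is not a result about the list. For most lists the counts against the second pair are given as deposited and with the length trend removed.

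**Figure D2:**
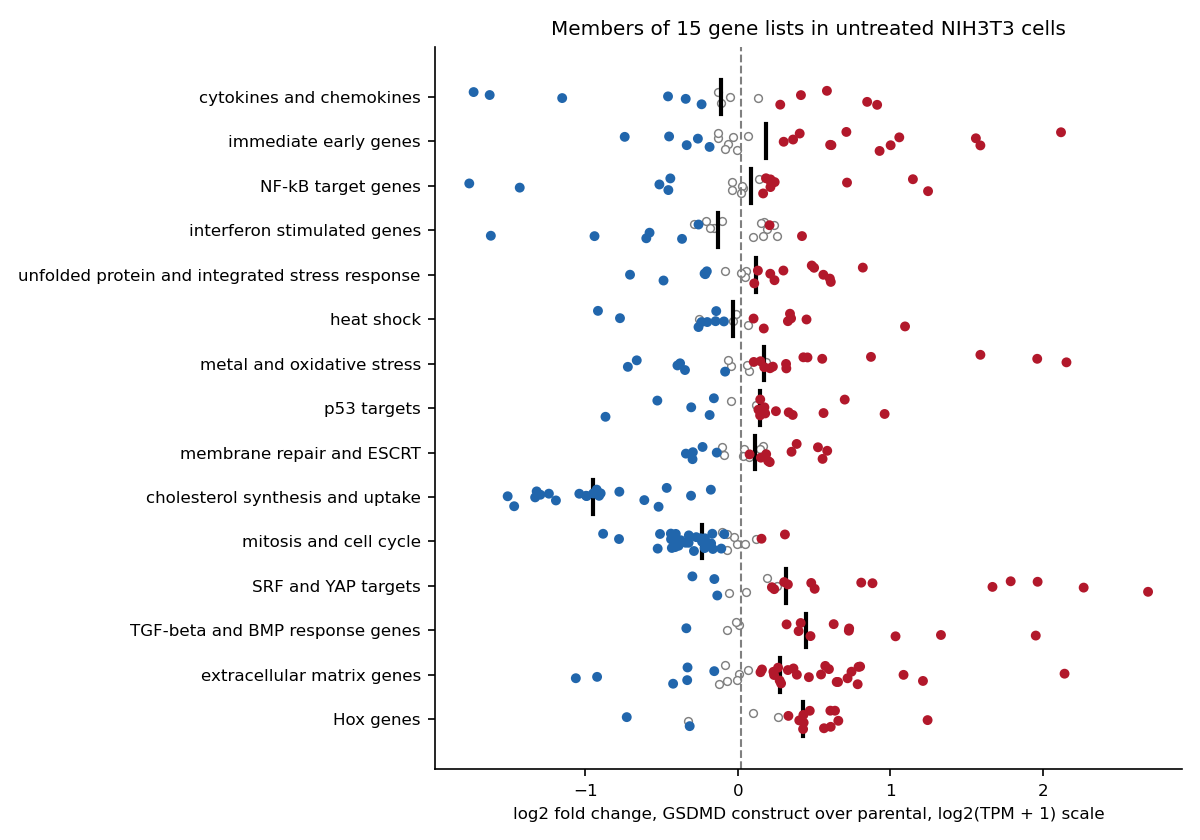
Each point is a tested member of a list, placed by its log2 fold change of untreated GSDMD over untreated parental NIH3T3 cells, filled red (higher) or blue (lower) where it passed and open where it did not. Black bars are list medians and the dashed line is the median of all 11620 genes. Most lists scatter on both sides of that line, while all 21 cholesterol genes lie left of it and SRF, YAP, matrix and Hox genes lie mostly right of it in this comparison with the first parental pair.

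Of 15 cytokine and chemokine genes tested, 5 were higher and 6 lower, with a median of -0.11 against 0.02 for all genes. Cxcl1, the neutrophil chemokine, had 8.95 and 11.6 TPM in GSDMD cells, against 13.2 and 13.2 TPM in parental cells (log2 fold change -0.34, SE 0.10, limma adjusted p = 0.0061), and 894 and 835 TPM after 4OHT. Its change no longer passed with only the libraries of the comparison (limma adjusted p = 0.0575) or without GSDMD replicate 1 (-0.17, 0.188), and was -0.51 without GSDMD replicate 2. Ccl2, the monocyte chemokine, had 200 and 235 TPM in GSDMD cells and 237 and 233 TPM in parental cells and did not pass (limma adjusted p = 0.0654). It was past the threshold without GSDMD replicate 2, at -0.23 (limma adjusted p = 0.000316). Ccl7, a related chemokine, was lower at 42.4 and 40 TPM in GSDMD cells, against 49.6 and 48 TPM in parental cells, and did not pass without parental replicate 1 (limma adjusted p = 0.065) or GSDMD replicate 2 (0.085). Cxcl1 and Ccl7 lay below both parental pairs, while Ccl2 overlapped with the 206 and 199 TPM of the second pair.

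Cytokines gave mixed values. Il6, a cytokine of fever and acute inflammation, had 2.81 and 1.94 TPM in GSDMD cells, against 0.474 and 1.15 TPM in parental cells (log2 fold change 0.91, SE 0.21, limma adjusted p = 0.00118), near the floor used for testing. Il6 had 2.45 and 1.23 TPM in the second parental pair, so the groups overlapped there. Il11 and Lif, cytokines of the same family, were higher in GSDMD cells by 0.41 and 0.28 on the log2 scale. For Lif the second parental pair held 26.8 and 27.1 TPM, above the 12.3 and 11.3 TPM of GSDMD cells, and against the mean of both parental pairs the sign turned, to -0.42 (limma adjusted p = 6.02e-06). Il33, an alarmin that dying cells release, fell to 13.2 and 14.2 TPM in GSDMD cells, against 50.8 and 44.9 TPM in parental cells (log2 fold change -1.73, SE 0.09, limma adjusted p = 8.84e-13). Below the GSDMD cells, the second parental pair held 2.96 and 3.04 TPM of Il33, and against the mean of both pairs the change did not pass (0.07, limma adjusted p = 0.416). Cxcl5, another neutrophil chemokine, was lower by 1.63 on the log2 scale, at 9.46 and 8.78 TPM in GSDMD cells, against 30.3 and 30.2 TPM in parental cells and 6.64 and 6.61 TPM in the second parental pair. Of the 11 called genes of the list, 1 lay above and 4 lay below all 4 parental libraries. Compared with the second pair, 3 were higher and 6 lower, or 1 and 8 with the length trend removed.

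Among 24 immediate early genes tested, 12 were higher and 5 lower than in the first parental pair (median 0.18), and 5 of the 12 were at least 2-fold higher. Set against the second pair the list leaned the other way, with 8 higher and 12 lower (median -0.12), 5 and 17 after median centring, and 3 and 15 with the length trend removed. Egr1, a zinc finger transcription factor that growth factors and stress switch on within minutes, had 31.2 and 29.6 TPM in GSDMD cells, against 6.43 and 6.05 TPM in parental cells (log2 fold change 2.12, SE 0.07, limma adjusted p = 4.18e-16). It held 19.3 and 18.2 TPM in the second parental pair and 265 and 297 TPM after 4OHT, so the resting level lay above both parental pairs and well under the induced one. Against the second parental pair with the length trend removed, Egr1 did not pass (log2 fold change 0.05, limma adjusted p = 0.505). Myc, the growth regulator, had 129 and 132 TPM in GSDMD cells and 43.4 and 42.2 TPM in parental cells (log2 fold change 1.59, SE 0.05, limma adjusted p = 1.73e-16), with 138 and 133 TPM in the second parental pair. Fosl1, an AP-1 subunit, had 166 and 173 TPM in GSDMD cells and 58.3 and 55.4 TPM in parental cells, and 297 and 290 TPM in the second parental pair. Both genes lay below the second parental pair. Fosl2, another AP-1 subunit, was 1.00 higher on the log2 scale and above both pairs, at 96.6 and 92.2 TPM in GSDMD cells, against 45.8 and 47.5 TPM in parental cells and 45.7 and 44.5 TPM in the second pair. Fosb, which 4OHT took to 107 and 117 TPM, was lower at rest, with 2.02 and 2.4 TPM in GSDMD cells, against 4.58 and 4.16 TPM in parental cells (log2 fold change -0.74, SE 0.07, limma adjusted p = 2.27e-08). Fos did not pass the filter on low values and was not tested. Over the list, 7 members lay above and 4 below all 4 parental libraries, against 23% and 7.62% of all genes. The second parental pair had 17 of 24 higher and 4 lower than the first, against 18.4% and 57.7% of all genes.

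NF-kB target genes divided. Of 20 tested, 9 were higher and 5 lower, with a median of 0.09. Ptgs2, the inducible cyclooxygenase, had 230 and 217 TPM in GSDMD cells, against 97.1 and 90.1 TPM in parental cells and 154 and 149 TPM in the second parental pair (log2 fold change over parental 1.25, SE 0.05, limma adjusted p = 1.02e-14). Its level was 1831 and 1709 TPM after 4OHT. Against the second pair its change was 0.56, and 0.10 with the length trend removed. Tnfaip3, a feedback inhibitor of NF-kB, had 1.88 and 2.37 TPM in GSDMD cells and 0.719 and 1.09 TPM in parental cells (log2 fold change 0.72). Nfkbia, the inhibitor that NF-kB itself induces, was lower by 0.46 on the log2 scale, at 37.7 and 36.9 TPM in GSDMD cells, against 51.2 and 51.9 TPM in parental cells and 35.4 and 33.4 TPM in the second pair. The collagenase gene Mmp13 and the stromelysin gene Mmp3 were lower by 1.76 and 1.43, at levels under 6 TPM in the untreated GSDMD libraries and both parental pairs. Of the list, 7 members were above all 4 parental libraries and 1, Mmp3, below, against 23% and 7.62% of all genes. Relative to the second pair 14 were higher and 3 lower, or 6 and 8 with the length trend removed. For all genes these shares were 59.8% and 16.2%, or 36.1% and 34.5%.

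Of 20 interferon-stimulated genes tested, 2 were higher, 6 lower and 12 did not pass (median -0.13). H2-K1, a class I antigen-presenting gene, had 18.5 and 18.8 TPM in GSDMD cells, against 34.9 and 38.6 TPM in parental cells and 14.2 and 13.8 TPM in the second pair. Bst2, a tethering factor for viruses, was listed at 0 in both GSDMD libraries, against 2.38 and 1.79 TPM in parental libraries. Isg15, a ubiquitin-like interferon product, was lower by 0.58, with 3.49 and 2.8 TPM in GSDMD cells and 4.1 and 6.47 TPM in parental cells, and did not pass without parental replicate 2 (limma adjusted p = 0.342) or GSDMD replicate 2 (0.177), with only the libraries of the comparison (0.0563) or with no filter (0.0508). In this list 1 gene lay above and 3 below all 4 parental libraries. Of 21 tested against the second pair, 11 were higher and 6 lower, or 6 and 8 with the length trend removed.

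Of 11 tested pyroptosis genes 2 were higher, Gsdmd among them, and 6 were lower (median -0.19). Relative to the second pair 8 were higher and 3 lower, or 4 and 5 with the length trend removed. Casp4, the caspase that cuts GSDMD after cytosolic lipopolysaccharide, had 4.4 and 5.15 TPM in GSDMD cells, against 10.4 and 8.68 TPM in parental cells, and lay below all 4 parental libraries. Txnip, a redox protein that binds NLRP3, had 89.7 and 87.5 TPM in GSDMD cells and 185 and 179 TPM in parental cells. Its mean was 53.9 TPM in the second parental pair, below the GSDMD cells, and 86.9 TPM in MLKL cells. Among 7 tested necroptosis genes 1 was higher and 2 were lower (median 0.03). Mlkl, the pore-forming protein of necroptosis, had 58.1 and 59 TPM in GSDMD cells and 55.7 and 51.4 TPM in parental cells and did not pass (limma adjusted p = 0.0597). With the replicate number as a block it did (0.0468). Of 22 tested genes of membrane repair and the ESCRT machinery, 10 were higher and 5 lower (median 0.11), none by 2-fold. Of the 22, 7 lay above and 3 below all 4 parental libraries, against 23% and 7.62% of all genes. Relative to the second pair 9 were higher and 5 lower, or 6 and 14 with the length trend removed. Anxa6 and Anxa7, annexins that bind damaged membrane, were higher by 0.59 and 0.55 on the log2 scale.

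Of 20 genes of the unfolded protein and integrated stress response, 11 were higher and 5 lower (median 0.12), with no change of 2-fold. Of the 20, 9 lay above and 4 below all 4 parental libraries, against 23% and 7.62% of all genes. Set against the second pair, 10 were higher and 8 lower, or 5 and 11 after median centring and 7 and 10 with the length trend removed. Calr, a calcium-binding chaperone of the endoplasmic reticulum, had 2006 and 1918 TPM in GSDMD cells, against 1146 and 1078 TPM in parental cells (log2 fold change 0.82, SE 0.03, limma adjusted p = 1.02e-14). Hsp90b1 and Pdia4, chaperones of the same compartment, were higher by 0.61 and 0.60, and Calr, Hsp90b1 and Pdia4 lay above both parental pairs. Ddit3, the stress transcription factor CHOP, had 43.3 and 44.5 TPM in GSDMD cells and 30.4 and 28.6 TPM in parental cells, against 385 and 398 TPM after 4OHT. Atf4, which drives the integrated stress response, was lower by 0.22. Chac1, a target of ATF4 and CHOP, did not pass, with 12.6 and 10.7 TPM in GSDMD cells and 11.6 and 10.8 TPM in parental cells, although 4OHT took it to 341 and 358 TPM. Ppp1r15a, the phosphatase subunit that ends the response, did not pass either, at 21.2 and 19.3 TPM in GSDMD cells and 19.5 and 20.5 TPM in parental cells.

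Heat shock genes did not lean one way. Of 19 tested, 7 were higher and 8 lower (median -0.03), and 3 lay above and 2 below all 4 parental libraries. Relative to the second pair 9 were higher and 5 lower, or 3 and 10 with the length trend removed. Bag3, a co-chaperone of HSP70, had 104 and 104 TPM in GSDMD cells, against 47.4 and 49.2 TPM in parental cells and 68.7 and 69.1 TPM in the second pair. Hspa1b, the inducible HSP70 gene, had 11.6 and 11.4 TPM in GSDMD cells and 21.7 and 23.6 TPM in parental cells, but a mean of 11.8 TPM in the second pair. The near-identical copy Hspa1a shares reads with Hspa1b, so the split between the copies is uncertain. Among 18 tested p53 targets 11 were higher and 5 lower than in the first parental pair (median 0.15). Set against the second pair the list turned, with 4 of 19 higher and 11 lower (median -0.30), or 1 and 15 with the length trend removed, and 1 gene lay above and 2 below all 4 parental libraries. Cdkn1a, the cell cycle inhibitor, and Mdm2, which degrades p53, were higher by 0.15 and 0.17, but lower by 0.18 and 0.19 against the mean of both parental pairs. Cdkn1a did not pass without GSDMD replicate 2 (limma adjusted p = 0.126). Plk2, a stress kinase, had 124 and 122 TPM in GSDMD cells, against 63.4 and 61.7 TPM in parental cells and 123 and 125 TPM in the second pair.

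Metal-binding and antioxidant genes included 3 that were at least 2-fold higher at rest, as were 1.3% of all genes. Other lists held 5 such immediate early genes, 5 SRF and YAP targets, 2 NF-kB targets and 1 heat shock gene. No p53 or unfolded protein gene was 2-fold higher. Of 25 tested, 14 were higher and 6 lower (median 0.17). The 3 were the metallothionein genes Mt1 and Mt2, whose products bind zinc and copper, and the heme oxygenase gene Hmox1, and no member was 2-fold lower. Mt2 had 193 and 209 TPM in GSDMD cells, against 42.2 and 46.6 TPM in parental cells (log2 fold change 2.15, SE 0.13, limma adjusted p = 2.12e-11). Mt2 stood at 74.3 and 80.8 TPM in the second parental pair and in the MLKL cells at 34.5 and 27.3 TPM. Mt1 had 893 and 1079 TPM in GSDMD cells, 247 and 255 TPM in parental cells, and 701 and 656 TPM in the second pair (log2 fold change over parental 1.96, SE 0.07). Both genes lay above all 4 parental libraries, with the second pair between. Hmox1, which degrades heme, had 104 and 107 TPM in GSDMD cells, against 33.9 and 34.9 TPM in parental cells and 67.3 and 71.6 TPM in the second pair (log2 fold change over parental 1.59, SE 0.05, limma adjusted p = 1.73e-16). After 4OHT it stood at 2054 and 2082 TPM. The redox protein gene Txn1 was lower, at 738 and 797 TPM in GSDMD cells, against 1192 and 1238 TPM in parental cells and 1246 and 1258 TPM in the second pair. Over the list, 7 members lay above and 3 below all 4 parental libraries, against 23% and 7.62% of all genes. The counts against the second pair were 14 higher and 8 lower, or 10 and 11 with the length trend removed.

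Genes that respond to membrane permeabilization were set apart by a rule that used other libraries. A gene counted where both MLKL dimerization (100 nM AP20187, 1 h) and digitonin (55 µg/mL, 3 h) raised it at least 2-fold in NIH3T3 cells, which 1.46% of genes did with MLKL dimerization and 8.13% with digitonin. None of those libraries is in the comparison of untreated GSDMD with parental cells, but the untreated libraries of the digitonin experiment are the second parental pair. The rule gave 119 genes, of which 115 were tested. At rest 58 were higher, 30 lower and 27 did not pass, with a median of 0.17 against 0.02 for all genes. Of these, 14 were at least 2-fold higher and 5 at least 2-fold lower. With 4OHT 111 of the 119 were raised in GSDMD cells, against 20% of all tested genes, with a median of 2.21 on the log2 scale. Both medians use the same untreated GSDMD libraries. Against all 4 parental libraries, 31 of the genes lay above and 11 below, Cxcl1 and Fosb among the 11. Of all tested genes 23% lay above and 7.62% below. In the same list, the second parental pair had 59 genes higher and 42 lower than the first, with a median of 0.15 beside -0.29 for all genes. Against the second pair, 51 of 116 were higher and 45 lower in GSDMD cells, with a median of -0.02 beside 0.32 for all genes. With the length trend removed there were 27 higher and 70 lower (median -0.32). The rule that chose these genes favours genes that are low in the second parental pair. Counts that involve that pair, also those against all 4 parental libraries, are therefore shaped by the rule. No conclusion is drawn from them.

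**Figure D3:**
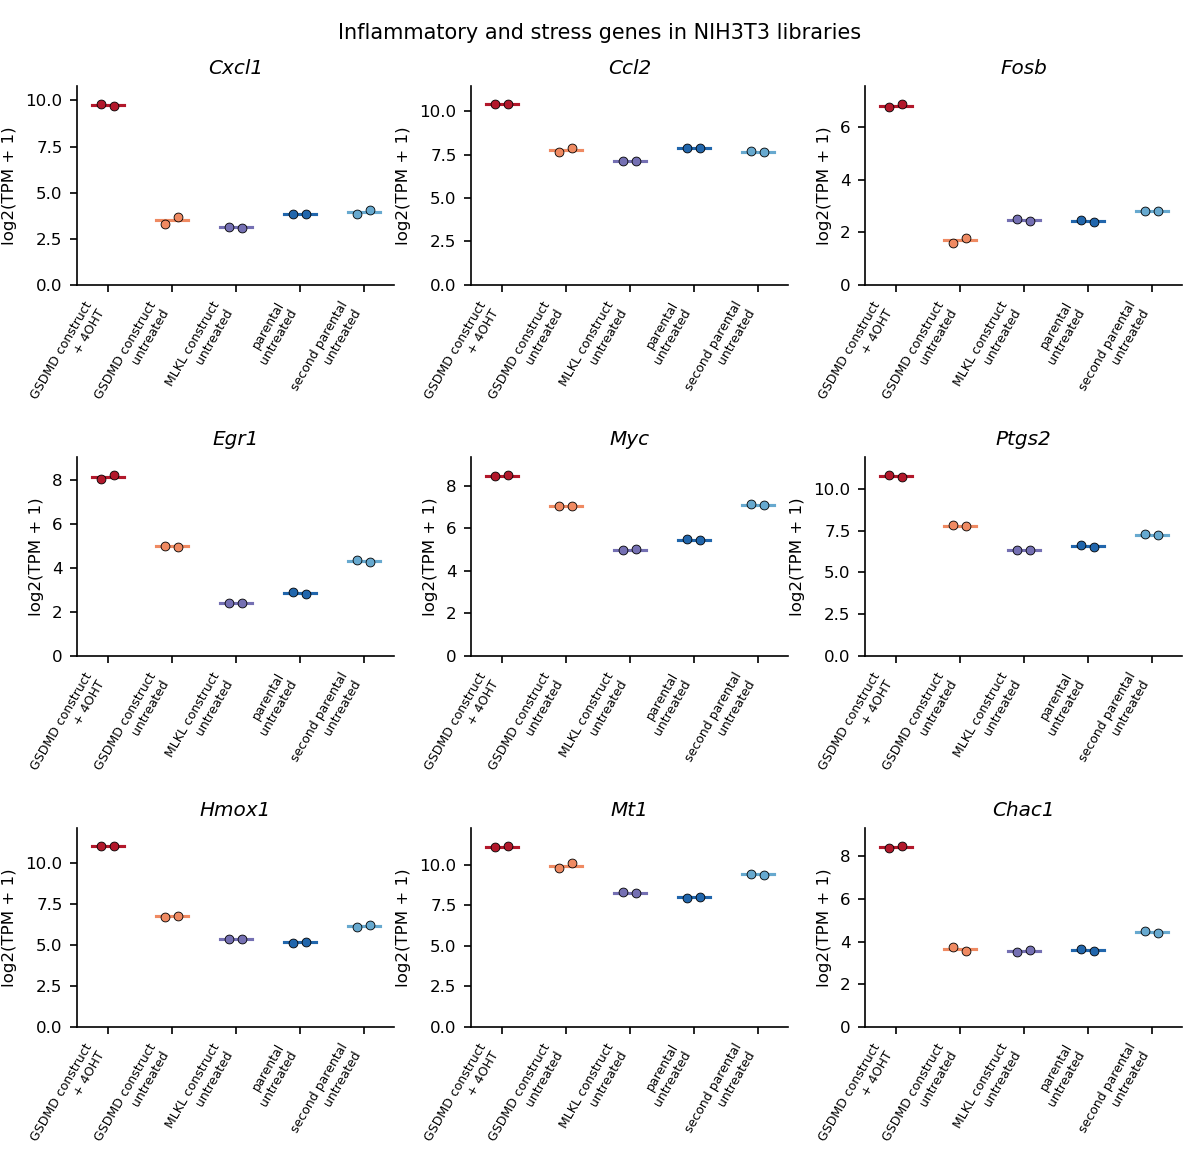
Level of 9 inflammatory and stress genes in each NIH3T3 library on the log2(TPM + 1) axis, with points for libraries and bars for the mean of 2, in 5 groups. In each panel the libraries with 4OHT are highest. Resting GSDMD libraries lie above both parental pairs for Egr1, Ptgs2, Hmox1 and Mt1, below both for Cxcl1 and Fosb, and slightly below the second pair for Myc.

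Cholesterol genes formed the most uniform list. All 21 tested genes of cholesterol synthesis and uptake were lower in GSDMD than in parental cells, 8 of them at least 2-fold, with a median of -0.95. Insig1, which holds the sterol sensor in the endoplasmic reticulum, had 113 and 110 TPM in GSDMD cells, against 318 and 320 TPM in parental cells (log2 fold change -1.51, SE 0.03, limma adjusted p = 5.18e-21). Hmgcs1, an early enzyme of the pathway, had 108 and 98.7 TPM in GSDMD cells, against 297 and 277 TPM in parental cells (log2 fold change -1.47, SE 0.04, limma adjusted p = 2.16e-17).
The promoters of Hmgcs1 and Insig1 are shown because SREBP2, the sterol-sensing factor, acts on this pathway through a sterol response element next to CCAAT boxes that NF-Y binds. Each line is the 250 bases before the RefSeq start, at chr13:119690101-119690350 and chr5:28071162-28071411, both on the plus strand of GRCm38.p6. The capitals mark TCACNCCAC and CCAAT on either strand.
Hmgcs1: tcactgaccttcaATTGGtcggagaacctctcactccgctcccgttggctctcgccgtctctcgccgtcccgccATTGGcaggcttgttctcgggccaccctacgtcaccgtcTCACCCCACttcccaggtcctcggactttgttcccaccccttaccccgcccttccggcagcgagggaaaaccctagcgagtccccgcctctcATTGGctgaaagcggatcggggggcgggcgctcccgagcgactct
Insig1: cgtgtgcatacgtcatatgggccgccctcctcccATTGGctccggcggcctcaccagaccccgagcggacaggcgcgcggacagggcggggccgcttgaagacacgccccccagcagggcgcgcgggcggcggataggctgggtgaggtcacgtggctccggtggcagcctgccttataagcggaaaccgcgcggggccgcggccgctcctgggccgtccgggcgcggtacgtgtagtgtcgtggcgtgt
Hmgcs1 has 1 match to TCACNCCAC, and no other list member with a window has one, against 1.12% of the tested genes. CCAAT is in the windows of 13 of the 14 members found in the table, against 41.8% of 8739 tested genes with a window. The list was made of genes of a known pathway, so that share says nothing about the change in GSDMD cells.
Lower levels than in the first parental pair were also seen outside the GSDMD cells. All 21 genes were lower in the second parental pair than in the first (57.7% of all genes were lower there), with a median of -0.90 beside -0.29 for all genes. Insig1 stood at 104 and 107 TPM and Hmgcs1 at 67.5 and 66.1 TPM in that pair. MLKL cells had 174 and 176 TPM of Insig1 and 142 and 140 TPM of Hmgcs1. Against the second parental pair, 10 of the 21 were higher and 5 lower in GSDMD cells, or 6 higher and 12 lower with the length trend removed. Of the 21, 6 lay below all 4 parental libraries.

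**Figure D4:**
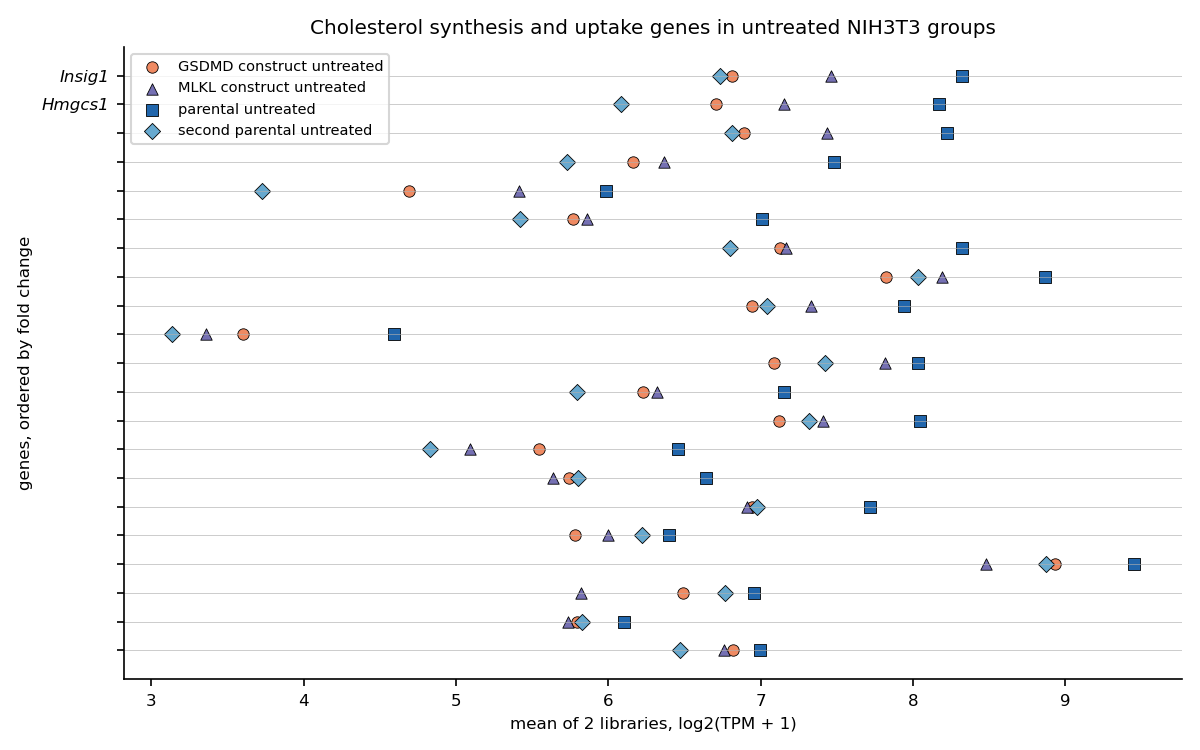
Mean level of 2 libraries for each of 21 cholesterol genes on the log2(TPM + 1) axis, in 4 untreated NIH3T3 groups marked by colour and shape, with genes in rows ordered by fold change and Insig1 and Hmgcs1 labelled. The squares of the first parental pair lie to the right of all other groups in every row, so that GSDMD, MLKL and second parental cells all have lower means than it for all 21 genes.

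SRF and YAP are factors that answer to actin tension and cell shape. Of 20 tested targets, 13 were higher and 3 lower than in the first parental pair (median 0.32), and 10 of the 13 lay above all 4 parental libraries. Set against the second pair, 15 were higher and 2 lower, but 7 and 9 after median centring, and 10 and 5 with the length trend removed. Ctgf, a matricellular growth factor and YAP target, had 259 and 264 TPM in GSDMD cells, against 38.5 and 41 TPM in parental cells (log2 fold change 2.69, SE 0.03, limma adjusted p = 1.92e-24), and 179 and 177 TPM in the second pair. Cyr61, its paralog, had 173 and 184 TPM in GSDMD cells, 34.4 and 38.4 TPM in parental cells, and 140 and 142 TPM in the second pair. MLKL cells were the lowest for both, at 25.1 and 25.2 TPM of Ctgf and 9.44 and 10.3 TPM of Cyr61. Acta2, smooth muscle actin, had 65.2 and 68.1 TPM in GSDMD cells, against 15.3 and 17.4 TPM in parental cells and 46 and 45.1 TPM in the second pair. Amotl2, a partner of YAP, was higher by 1.79 on the log2 scale. Myl9, the myosin light chain of contractile fibres, had 16.3 and 17.7 TPM in GSDMD cells, against 5.06 and 4.28 TPM in parental cells and 23.2 and 20.4 TPM in the second pair. It was chosen after its values were seen, because its promoter shows the CArG box that SRF binds. The 250 bases before its RefSeq start lie at chr2:156775214-156775463 on the plus strand of GRCm38.p6, with that box in capitals.
Myl9: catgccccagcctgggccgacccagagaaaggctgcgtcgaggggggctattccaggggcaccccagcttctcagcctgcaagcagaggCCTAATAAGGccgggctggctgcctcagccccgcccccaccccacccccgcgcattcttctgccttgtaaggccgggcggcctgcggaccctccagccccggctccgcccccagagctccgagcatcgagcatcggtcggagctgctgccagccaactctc
CArG boxes were searched only in the strict form CCWWWWWWGG, where W is A or T. Such a box is in the window of 5 of the 15 list members found in the table, against 1.36% of tested genes with a window. The 5 are Cnn2, Myl9, Vcl, Srf and Actg1, and the changes of Srf and Actg1 did not pass. Acta2, Amotl2 and Tpm2, which were higher, had no match to this strict form in the window. Boxes that depart from it were not searched. GGAATG, the core that TEAD binds as the partner of YAP, is in the windows of 9 of the 15 members on either strand, against 12.5% of tested genes. The list was made of known SRF and YAP targets, so these shares say nothing about the change in GSDMD cells.

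Of 14 genes of the TGF-beta and BMP response, 10 were higher and 1 lower (median 0.44), and 6 lay above and 1 below all 4 parental libraries. Id1, a BMP target, had 93.7 and 88.1 TPM in GSDMD cells, against 22.7 and 22.8 TPM in parental cells and 117 and 102 TPM in the second pair. Tgfb3, a ligand, had 61.8 and 59.4 TPM in GSDMD cells, 28.6 and 29.6 TPM in parental cells, and 41.5 and 41.2 TPM in the second pair. Compared with the second pair, 6 members were higher and 4 lower (median 0.12), and the lean turned with median centring (4 and 9) or with the length trend removed (3 and 9).
Among 36 extracellular matrix genes 24 were higher and 6 lower (median 0.28), and 21 lay above all 4 parental libraries, against 23% of all genes. Fbln5, which assembles elastic fibres, had 97 and 97.4 TPM in GSDMD cells, against 41.3 and 41.5 TPM in parental cells and 68.1 and 68.6 TPM in the second pair. Mgp, an inhibitor of calcification, had 50.6 and 50.9 TPM in GSDMD cells and 10.8 and 10.6 TPM in parental cells. The second pair held 49.9 and 46.3 TPM of Mgp. Fn1, fibronectin, was higher by 0.54, and Timp2, a protease inhibitor, by 0.72. The proteoglycan gene Dcn and the secreted phosphoprotein gene Spp1 were lower, with 99 and 97.4 TPM of Dcn and 1911 and 1945 TPM of Spp1 in GSDMD cells, against 212 and 201 TPM and 3729 and 3586 TPM in parental cells. Both also lay below the second pair. Relative to that pair 27 of the 36 matrix genes were higher and 6 lower, or 20 and 10 with the length trend removed.

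Of 37 tested genes of mitosis and the cell cycle, 28 were lower and 2 higher than in the first parental pair, none by 2-fold (median -0.24). Against the second pair 24 were higher and 4 lower, or 16 and 15 with the length trend removed. The median against that pair was 0.39, near the 0.32 of all genes, of which 59.8% were higher and 16.2% lower. Cenpa, the centromeric histone, had 125 and 119 TPM in GSDMD cells, against 219 and 234 TPM in parental cells and 142 and 142 TPM in the second pair. Ccnb1, the mitotic cyclin, had 102 and 101 TPM in GSDMD cells, 175 and 174 TPM in parental cells, and 84.1 and 86.7 TPM in the second pair. The replication clamp gene Pcna and the G1 cyclin gene Ccnd1 were lower by 0.43 and 0.32. Of the list, 5 members lay below all 4 parental libraries, against 7.62% of all genes. The second pair had 34 of 37 lower than the first, against 57.7% of all genes. Fewer cycling cells and less RNA per cell cannot be told apart in bulk samples.

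Hox genes, which record the body position a cell came from, were higher in 12 of 17 cases and lower in 2 (median 0.43). Of the 12, 11 lay above all 4 parental libraries. Hox genes higher than in the second pair numbered 14, with none lower, or 8 and 2 with the length trend removed. For all genes these shares were 59.8% and 16.2%, or 36.1% and 34.5%. Hoxa3 had 38.9 and 37.4 TPM in GSDMD cells, against 15.4 and 15.7 TPM in parental cells and 21.6 and 16.9 TPM in the second pair (log2 fold change over parental 1.24, SE 0.10, limma adjusted p = 2.48e-09). Hoxd8 was lower by 0.73, at 34.6 and 36 TPM in GSDMD cells, against 60.5 and 57.7 TPM in parental cells and 27.9 and 30.6 TPM in the second pair. Among 11 imprinted genes 6 were higher and 3 lower (median 0.10), and 6 lay above and 2 below all 4 parental libraries. Dlk1, a Notch ligand of undifferentiated cells, had 63.5 and 65.1 TPM in GSDMD cells, against 24 and 25.3 TPM in parental cells and 7.15 and 5.79 TPM in the second pair. Plagl1, an imprinted zinc finger gene, had 12.6 and 10.5 TPM in GSDMD cells and 3.86 to 4.20 TPM in all 4 parental libraries.

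The largest falls included genes that are usually silent outside the germ line. Rhox5, an X-linked reproductive homeobox gene, had 15.7 and 15.6 TPM in GSDMD cells, against 317 and 306 TPM in parental cells and 314 and 299 TPM in the second pair (log2 fold change over parental -4.23, SE 0.13, limma adjusted p = 2.81e-16). The MLKL cells were as low, at 10.6 and 10.5 TPM. Untreated MLKL cells of the control siRNA experiment held 77.1 and 68 TPM. Rhox5 was thus high in all 4 parental libraries and lower in both construct lines. Cox7b2, a testis form of a respiratory subunit, had 0.772 and 0.267 TPM in GSDMD cells, against 32.6 and 40.8 TPM in parental cells, but 0.448 and 0.211 TPM in the second pair. The MAGE genes Magea8 and Magea3, close paralogs on the X chromosome whose reads can be split between copies, were lower by 2.54 and 2.22 and below all 4 parental libraries. Dppa4, a pluripotency gene, and the coagulation inhibitor gene Tfpi were lower by 2.37 and 2.30, yet the second pair lay below the GSDMD cells for both genes. Glipr1 and Hspa12a, an atypical HSP70, were lower by 2.52 and 2.59 and below all 4 parental libraries.
Pde1a, AI662270 and C2cd4c completed the falls, by 2.29, 2.38 and 2.17. Zrsr1, Raet1b and Rps15a-ps4 fell by 2.91, 2.63 and 2.94. Raet1b and Rps15a-ps4 belong to families of near-identical copies, so the values of these genes are uncertain. Raet1b did not pass with a pseudocount of 0.1 (limma adjusted p = 0.0543).

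Among the largest rises that no list held, Cnbd2, a cyclic nucleotide-binding domain gene, had 130 and 178 TPM in GSDMD cells, against 39.1 and 35.7 TPM in parental cells and 37.4 and 36.2 TPM in the second pair (log2 fold change over parental 2.00, SE 0.09, limma adjusted p = 1.19e-13). Ablim1, an actin-binding LIM protein, had 5.24 and 5.42 TPM in GSDMD cells, against 0.274 to 0.612 TPM in the 4 parental libraries. Both were high only in the libraries with the GSDMD construct among the 5 groups plotted. Vdr, the vitamin D receptor, had 46.9 and 47.4 TPM in GSDMD cells and 8.64 and 8.25 TPM in parental cells, but 28.8 and 26.4 TPM in the second pair and 56.8 and 57 TPM in MLKL cells. Igf1, a growth factor that estrogen raises in the uterus, had 4.11 and 3.68 TPM in GSDMD cells and 0.479 and 0.416 TPM in parental cells. Its mean was 1.25 TPM in the second pair and 1.88 TPM in MLKL cells. It belongs to a list of nuclear hormone receptor and estrogen response genes. Of 8 tested there, 5 were higher, Esr1 among them, 1 was lower and 2 did not pass. Set against the second pair, 7 were higher and 0 lower, or 7 and 1 with the length trend removed. For all genes these shares were 59.8% and 16.2%, or 36.1% and 34.5%. Activity of the receptor was not tested. Wisp2, a relative of Ctgf, was higher by 1.98. Bc1 and Rpl37rt, by 2.51 and 2.01, are a brain cytoplasmic RNA and a ribosomal retrogene with near-identical copies, and both lay below the second pair. Amd1 and Amd2, a gene and its near-identical copy, moved in opposite directions, by 1.98 and -1.94, with 12.4 and 68.4 TPM of Amd1 in parental cells, so the assignment of reads between them is uncertain. Amd1 did not pass without parental replicate 1 (limma adjusted p = 0.37), GSDMD replicate 1 (0.051) or GSDMD replicate 2 (0.0651), and Amd2 turned to 0.32 against the mean of both parental pairs.
By chromosome, the median change was 0.18 over 559 tested genes of chromosome 10, with 281 higher and 68 lower, and lay between -0.075 and 0.074 on every other chromosome in the table. Against the second pair with median centring, chromosome 10 (0.161) lay within the range of the others, which ran from -0.325 on chromosome 15 to 0.18 on chromosome 3.

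**Figure D5:**
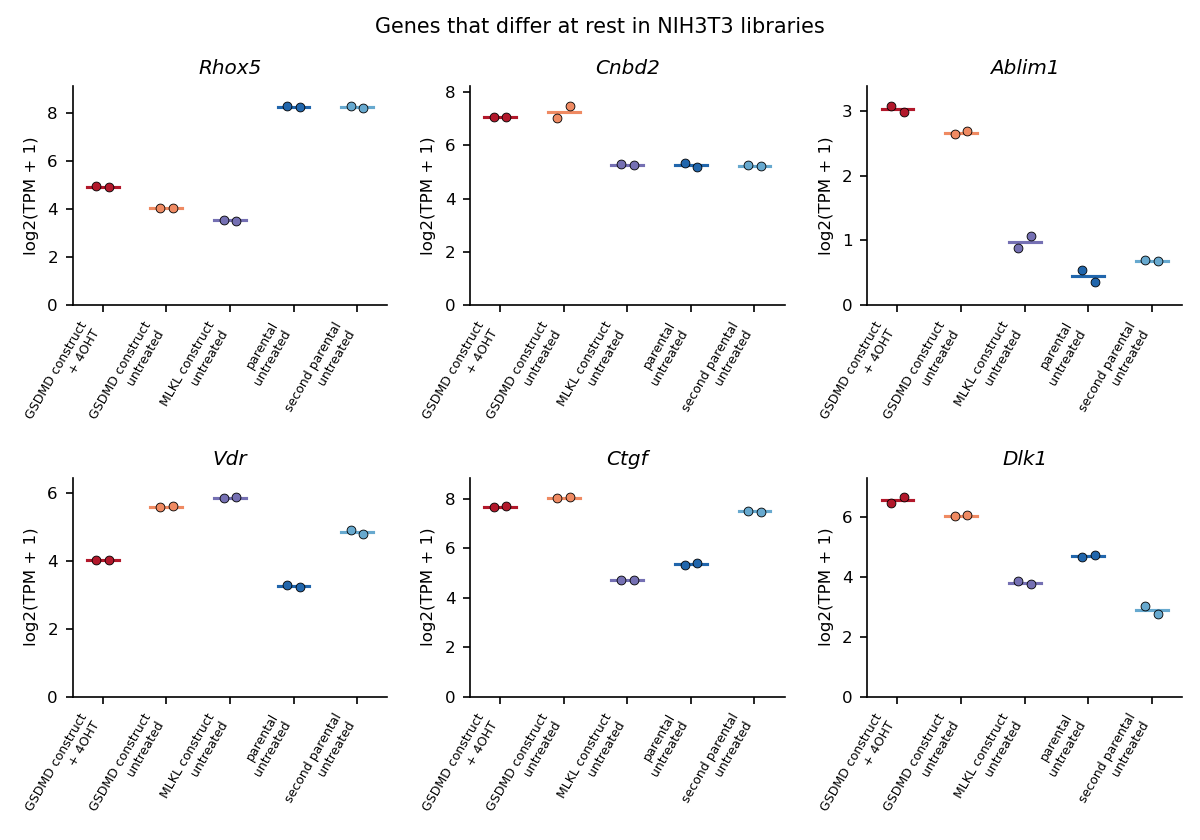
Level of 6 genes in each NIH3T3 library on the log2(TPM + 1) axis, with points for libraries and bars for the mean of 2, in 5 groups. Rhox5 is low in both construct lines and high in both parental pairs, Cnbd2 and Ablim1 are high only where the GSDMD construct is present, and Vdr and Ctgf of the second parental pair lie closer to the GSDMD cells than those of the first.

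Markers of other cell types were at low summed levels. Macrophage markers summed to 38 and 37.2 TPM in GSDMD cells and 39.4 and 40.8 TPM in parental cells, with 3 of 8 tested. Of these, the lysosomal gene Cd68 was higher by 1.34, and the receptor genes Cd14 and Csf1r were lower by 0.85 and 0.75. Csf1r did not pass against the mean of both parental pairs (limma adjusted p = 0.883). Skeletal muscle markers summed to 2.468 and 3.594 TPM in GSDMD cells and 4.088 and 5.08 TPM in parental cells, adipocyte markers to 6.757 and 6.523 TPM and 5.32 and 5.611 TPM, and endothelial markers to 1.816 and 1.812 TPM and 2.023 and 2.043 TPM. The part of such cells in the results was not tested.

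Set against the MLKL line, the other untreated construct line, GSDMD cells differed in 7192 of 11684 genes (61.6%), 4094 higher (35%) and 3098 lower (26.5%). The share higher among calls was 56.9%, and 46.6% after median centring. At least 2-fold higher were 234 genes (2%) and at least 2-fold lower 229 (1.96%). The MLKL line itself differed from the same parental libraries in 6027 of 11655 genes (51.7%), with 193 at least 2-fold higher (1.66%) and 142 at least 2-fold lower (1.22%). Both comparisons use the same parental libraries, so only the values of each are given. In MLKL cells Egr1 stood at 4.32 and 4.19 TPM, Ptgs2 at 79.9 and 81 TPM, and Hmox1 at 39.8 and 39.6 TPM, and Cxcl1 at 7.7 and 7.56 TPM. Of the permeabilization response genes, 64 of 116 were higher in GSDMD than in MLKL cells and 31 lower (median 0.34 beside 0.04 for all genes). The rule that chose these genes used the same untreated MLKL libraries and favours genes that are low there. That lean was therefore favoured in advance, and no conclusion is drawn from it. Of 20 SRF and YAP targets, 14 were higher and 1 lower than in MLKL cells.

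In LLC cells Gsdmd had 376 and 377 TPM with the same construct, against 22.6 and 22.6 TPM in parental cells, and Esr1 averaged 22.2 ± 0.45 TPM with it and 1.41 ± 0.19 TPM without it (SD, n = 2 each). Of 11178 genes tested, 6898 passed (61.7%), with 2935 higher (26.3%) and 3963 lower (35.5%). The share higher among calls was 42.5%, and 54.3% after median centring. Of the 10473 genes tested in both lines, 782 were higher in both, which is 25.1% of those higher in NIH3T3 and 28.4% of those higher in LLC. Of all genes tested in both, 26.3% were higher in LLC and 29.7% in NIH3T3, so the overlap was near those base shares. Another 920 were lower in both (33.6% and 25.1%, beside base shares of 35.1% in LLC and 26.2% in NIH3T3), and 2092 were called in opposite directions. In the LLC comparison 17 of 20 unfolded protein response genes and 22 of 26 metal and oxidative stress genes were lower with the construct. Egr1 averaged 0.671 ± 0.25 TPM with the construct and 1.36 ± 0.24 TPM without it, Mt1 737 ± 26 and 993 ± 86 TPM, and Ptgs2 51.2 ± 2.4 and 74.2 ± 3 TPM. Cxcl1 was lower there too, at 2.12 ± 0.26 TPM with the construct and 5.24 ± 0.66 TPM without it. Hmox1 and Ctgf were higher in both lines, Hmox1 with 79.1 ± 2.3 and 37.3 ± 2.5 TPM and Ctgf with 5.56 ± 0.35 and 2.18 ± 0.44 TPM in LLC cells with and without the construct. Of 21 cholesterol genes 17 were lower in LLC cells with the construct (median -0.27), and Hmgcs1 averaged 19.1 ± 1.8 TPM with it and 27.2 ± 0.76 TPM without it. Rhox5 was higher with the construct there, at 1309 ± 3.7 TPM with it and 632 ± 14 TPM without it. Over all genes, the change with the construct differed between the lines for 7415 of 12370 tested (59.9%).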

How the data were processed

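Polyadenylated RNA was measured in 51 mouse libraries, 35 of them NIH3T3. The deposited TPM values were made by the authors with Salmon on mm10, per the submitters' processing notes, and the unit was taken from the values. Version and index are not stated in the labels, and TPM give no depth. TPM share a fixed total, so that a few abundant RNAs shift all others.

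All 19407 genes were transformed to log2(TPM + 1). Each comparison was fitted with limma 3.58.1 (trend) in R 4.3.3 over 18 NIH3T3 groups, which share 1 spread, or over the LLC groups, without a replicate block. Genes with at least 1 TPM in 2 libraries of the comparison were tested. On simulated data for GSDMD against parental NIH3T3 cells (11557 genes), 200 genes were set to change. Of genes changed 1.5-fold, 2-fold and 4-fold, 94.3%, 100% and 98.3% were recovered, with 11 false calls (5.42%). In the data 55.2% of genes passed, so these rates describe a setting with far fewer changed genes. No library pair held identical values.

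The genes named are the 15 largest rises and 15 largest falls among called genes without overlap and with a mean of 5 TPM or more in the higher group, leaving out predicted and small RNA names, at most 4 per list with the lowest p, and a fixed set of response genes. Members, the 29 gene lists and rules were chosen with earlier results of these data known. The removal of the trend with transcript length was chosen after the data were seen. Other alternatives were a pseudocount of 0.1, no filter, median centring, quantile normalization, the libraries of the comparison only, removal of 471 small RNA and ribosomal RNA rows, a replicate block, each library left out, and the mean of both parental pairs. Promoters came from RefSeq (GRCm38.p6) by gene symbol, for 8739 of 11620 tested genes. Results for some genes are not reported here.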

Additional observations from a re-analysis of the deposited data

Results flagged for a closer look

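The GSDMD construct contrast differed between NIH3T3 and LLC cells by a test of the difference itself (limma, NIH3T3 minus LLC) for 7415 of 12370 genes. Among genes with values above, the difference on the log2 scale was 3.45 for Gsdmd, 3.81 for Esr1, 5.90 for D430020J02Rik, 2.62 for Egr1, 2.39 for Mt1, 1.77 for Ptgs2, 1.64 for Ctgf, 0.66 for Cxcl1 and 0.53 for Hmox1. It was -0.98 for Hmgcs1 and -5.28 for Rhox5.

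In libraries outside these comparisons, untreated LLC libraries labelled parental of the digitonin experiment held on average 335 TPM of Gsdmd and 32.9 TPM of Esr1. LLC cells labelled with the construct held 376 and 22.2 TPM of these genes, and the LLC parental libraries of the comparison 22.6 and 1.41 TPM. The libraries labelled parental there were used only in the shared estimate of spread in LLC cells.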

How the results depend on the processing

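Each of the 6 comparisons kept its count of calls within 1.5 times the reported one under every alternative run, in 77 of 77 values. Leaving out 1 library gave 5340 to 5534 calls for GSDMD against parental NIH3T3 cells, 7834 to 8204 for the second against the first parental pair, 7868 to 8207 for GSDMD against the second pair, 6135 to 6295 for GSDMD against MLKL cells, 5711 to 5941 in LLC cells and 6824 to 6947 for the difference between lines. The replicate block, which changed the call of Mlkl among the genes named (limma adjusted p = 0.0468), gave 6384 calls in the first of these. Deviations of same-numbered libraries correlated at 0.041 there, so little shared deviation was seen. Whether same-numbered libraries share a culture or preparation is not given. Against the mean of both parental pairs the first comparison had 6163 genes higher and 1862 lower, beside 3452 and 2957. Against the second pair the split moved, with 6918 higher and 1878 lower as deposited, 3517 and 4998 after median centring, and 4177 and 3994 with the length trend removed. GSDMD against MLKL cells had 3402 higher and 3897 lower after median centring, and the difference between lines 3491 and 4047. The second against the first pair had 2121 higher and 6665 lower as deposited, and 4921 and 3648 after median centring, when the median shift of -0.29 is removed.

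Against the mean of both parental pairs the sign turned for Lif (-0.42), Il33 (0.0712), Chac1 (-0.37), Ppp1r15a (-0.16), Cdkn1a (-0.18), Mdm2 (-0.19) and Amd2 (0.32). Values near 0 changed sign for Chac1 with quantile normalization (-0.0099) and without GSDMD replicate 1 (-0.058), and for Ppp1r15a with centring (-0.015), quantile normalization (-0.0075), the length trend removed (-0.016), and without parental replicate 1 (-0.016) or GSDMD replicate 1 (-0.049). Leaving out 1 library gave -0.2273 to 0.0027 for Ccl2, -0.0579 to 0.1561 for Chac1 and -0.0491 to 0.0863 for Ppp1r15a. The cause was not tested. TPM keep no depth, so counting error is unknown, and 2 libraries per group limit each test.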
